A study of Mus musculus with 21 samples.

Results

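The collagen genes described here are all genes whose annotated symbol is Col, a number, the letter a and a number with nothing after. The array carried 42 such genes of 18193 named genes, on 82 of its 45101 probe sets. A gene entered the tests if 3 or more of the 15 arrays at 24 h gave it a signal above that array's median. This left 33 of the 42 collagen genes among 12446 tested genes, and 57 of the 82 probe sets. Tested were 10 of 11 fibrillar genes, 6 of 6 basement membrane genes, 3 of 5 beaded filament genes, 7 of 9 fibril-associated genes, 3 of 3 short chain genes, 2 of 2 multiplexins, 1 of 4 transmembrane genes and 1 of 2 others. The 9 genes below the filter were Col6a4, Col6a5, Col9a2, Col13a1, Col17a1, Col20a1, Col23a1, Col24a1 and Col26a1, and none of them rose above the array median on any array at 24 h. Their signals at 24 h lay between 1.8 and 101.3. A gene that passes the filter is not a random member of the family, so counts below refer to the 33 tested genes.

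Collagens are the triple-helical proteins that give the wall of an artery its tensile strength. Each molecule winds together 3 alpha chains, and each chain is encoded by its own gene, so a network can form only from chains made in the same place. Fibrillar chains build the ropes of the media and adventitia, type IV chains build the basement membrane around each smooth muscle cell, and smaller families decorate fibrils, form beaded filaments or cross the cell membrane. In the artery the smooth muscle cell is a main source of these chains, and collagens II, IX, X and XI are best known from cartilage.

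The study examined cultured aortic smooth muscle cells of C57BL/6J mice, males aged 10-12 weeks, kept in DMEM/F12 medium with 10% serum, and measured total RNA on 21 Affymetrix arrays. Stimuli were added in PBS. Control cells received PBS alone. Of the treated groups, 1 received an antibody that activates the lymphotoxin beta receptor, here LTBR, at 10 µg/ml, 1 received tumour necrosis factor (TNF) at 1 ng/ml, and 1 received both agents at these doses. At 24 h there were 4 control, 4 antibody and 4 TNF arrays, numbered 0 to 3, and 3 arrays of the combination, numbered 1 to 3. At 2 h and at 6 h the control, antibody and TNF groups each had a single array, numbered 0. The labels do not say whether the numbers stand for separate cultures or animals, so p-values reflect only how these arrays spread, which may be technical.

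The array number mattered more than the treatment for most of the family. Over the 12 arrays numbered 1 to 3, a median of 74.5 percent of the variance of a collagen gene's log2 signal lay between numbers and 13.6 percent between treatments, and 26 of the 33 genes varied more between numbers than between treatments. Over all genes, arrays of the same number deviated together from their group means: 21 such pairs correlated at 0.46 to 0.81, and 63 pairs of different numbers at -0.58 to 0.22. The numbers therefore pair the arrays, and results are given from a fit with the number as a block, beside the counts and changes from the fit without it. The block compares treated and control arrays of the same number, which bears on the combination most, since it has no array numbered 0. For the antibody and TNF against the control or each other, both fits give the same change and differ in its error.

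**Figure D1:**
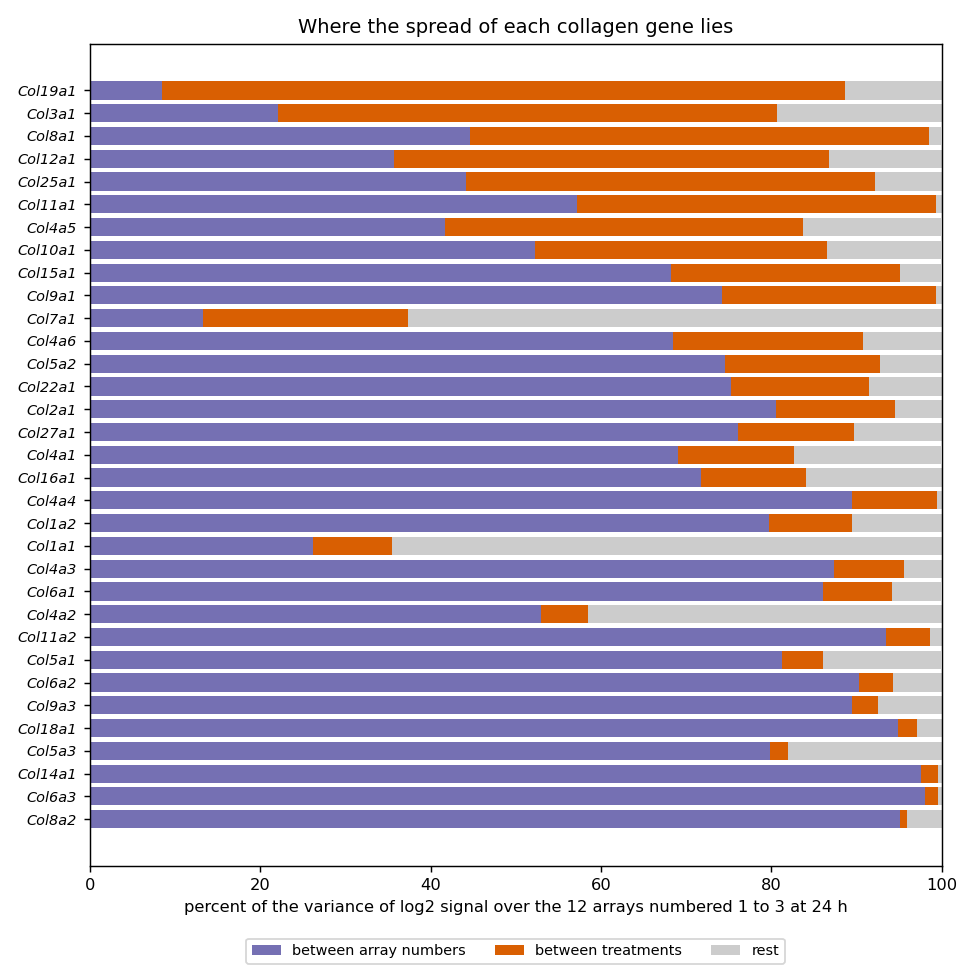
Share of the variance of log2 signal that lies between array numbers, between treatments and in neither, for each of the 33 tested collagen genes over the 12 arrays numbered 1 to 3 at 24 h. Treatments hold 80.1 percent for Col19a1 and 53.9 percent for Col8a1, and 1.5 percent for Col6a3, where numbers hold 98.0 percent.

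Of the 8 smooth muscle markers, Acta2 (smooth muscle actin) was at 16442.3 to 19661.5 and Tagln at 10304.6 to 15454.5 on every 24 h array, but others were not. Myh11, the smooth muscle myosin heavy chain, was at 110.7 to 152.1 on number 0 and at 529.2 to 3337.8 on the other numbers. Myocd, a master regulator of the contractile genes, was at 27.5 to 90.3 on numbers 0 and 1, below every array median, and Des was as low as 25.1. The 16 endothelial markers summed to 24902 to 26504 on the 24 h arrays numbered 0 and to 2691 to 5721 on those numbered 1 to 3, with Pecam1 at 4438.0 on the control array numbered 0 and at 68.6 to 318.7 on the other control arrays. Kdr (223.7 against 223.4 to 362.3) and Eng (1538.0 against 1145.1 to 1989.3) did not follow this split, and Cldn5 and Robo4 were below the filter. Since the combination has no array numbered 0, calls that were lost with numbers 1 to 3 alone are named below. The 7 cartilage markers (Acan, Comp, Sox9, Matn1, Matn3, Hapln1 and Cnmd) summed to 16016 to 25504 on arrays numbered 1 and 13357 to 17139 on arrays numbered 3, against 3692 to 5274 on those numbered 0 and 3986 to 7572 on those numbered 2, with Matn1 below the filter. Macrophage markers summed to at most 2120 on numbers 0 to 2 and to 3383 to 4730 on number 3. In such bulk RNA, fewer cells of a type and less RNA per cell cannot be told apart.

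Sequence before the start is shown for 4 genes on which the results turn: Col9a1 and Col11a1, which showed the smallest p-values against the control, Col3a1, a main fibrillar gene that fell, and Col6a1, the gene that rose. The sequences are from RefSeq (GRCm38.p6), 5′ to 3′ on the strand of the gene, and stop before the first annotated transcribed base. Col9a1 has 2 listed starts, 1 at the outer end of the gene and 1 inside it, and in the inner window exon and intron were not told apart. Capitals mark matches, on either strand, to the NF-kB consensus or to the core bound by SOX proteins (ACAAAG or ACAATG). No window held both, so the marked matches do not overlap.
Col9a1 outer start, chr1:24177360-24177588, plus strand: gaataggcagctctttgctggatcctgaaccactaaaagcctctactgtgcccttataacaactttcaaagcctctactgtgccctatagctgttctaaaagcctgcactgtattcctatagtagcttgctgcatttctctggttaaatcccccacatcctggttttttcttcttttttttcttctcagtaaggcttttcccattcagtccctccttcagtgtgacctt
Col9a1 inner start, chr1:24194953-24195202, plus strand: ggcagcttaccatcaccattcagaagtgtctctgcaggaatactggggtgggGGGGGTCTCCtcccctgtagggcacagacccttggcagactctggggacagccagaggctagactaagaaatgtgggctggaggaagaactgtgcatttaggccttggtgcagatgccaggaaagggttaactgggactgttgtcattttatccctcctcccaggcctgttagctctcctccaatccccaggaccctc
Col11a1, chr3:114030290-114030478, plus strand: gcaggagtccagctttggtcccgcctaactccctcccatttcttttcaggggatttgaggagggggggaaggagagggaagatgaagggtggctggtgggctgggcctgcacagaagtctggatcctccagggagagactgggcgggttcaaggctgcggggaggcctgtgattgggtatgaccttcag
Col3a1, chr1:45311288-45311537, plus strand: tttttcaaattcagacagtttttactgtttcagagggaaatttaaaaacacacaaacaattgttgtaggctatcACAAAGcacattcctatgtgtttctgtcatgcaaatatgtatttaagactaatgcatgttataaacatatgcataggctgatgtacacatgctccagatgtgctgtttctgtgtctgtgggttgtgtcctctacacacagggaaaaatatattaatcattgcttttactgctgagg
Col6a1, chr10:76726045-76726294, minus strand: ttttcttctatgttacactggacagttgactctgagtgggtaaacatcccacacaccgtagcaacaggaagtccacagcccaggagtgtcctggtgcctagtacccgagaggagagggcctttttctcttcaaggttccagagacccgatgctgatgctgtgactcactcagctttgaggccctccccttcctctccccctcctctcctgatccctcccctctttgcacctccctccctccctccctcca
Among these windows the inner Col9a1 start held 1 match to the NF-kB consensus and Col3a1 held 1 SOX core, and the others held neither. The table held windows for 33 of the 42 genes and for 2 collagen genes outside the 42. Windows were not used here for Col1a1, Col2a1, Col4a3, Col5a2, Col9a3, Col12a1, Col14a1, Col22a1 or Col26a1. Of 38 collagen windows of 250 bases, covering 25 of the 33 tested genes, 6 held the NF-kB consensus (15.8 percent) against 7.3 percent of all 32851 windows. These 6 were windows of Col4a2, Col6a2, Col6a4, Col9a1, Col9a2 and Col27a1, and Col6a4 and Col9a2 were not tested. The SOX core was in 4 of the 38 (10.5 percent) against 25.2 percent of all windows. The share of G and C bases was 35.2 to 76.4 percent in collagen windows, against a median of 52.4 percent over all windows. The G-rich motif GGGCGG was in 57.9 percent of collagen windows and 32.7 percent of all. The sets were not matched for base content. These are matches of letters and not evidence of binding.

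With the block, 16 of the 33 collagen genes fell and 1 rose after 24 h of both agonists. The background was 10.4 percent of all tested genes called lower and 9.1 percent called higher at an adjusted p under 0.05 (limma, Benjamini-Hochberg). The median log2 change of the family was -0.26, against 0.00 for all tested genes, and 29 of the 33 lay below 0 against 50 percent of all genes. Without the block 1 gene, Col19a1, was called, against a background of 2.46 percent called in either direction, and 5 collagen genes had an unadjusted p under 0.05. The falls were spread over structural classes: 5 of 10 fibrillar, 3 of 6 basement membrane, 4 of 7 fibril-associated, 2 of 3 short chain, 1 of 2 multiplexin genes and the 1 transmembrane gene. All fold changes below are on the scale of log2(signal + 10.2), which understates changes of dim genes.

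**Figure D2:**
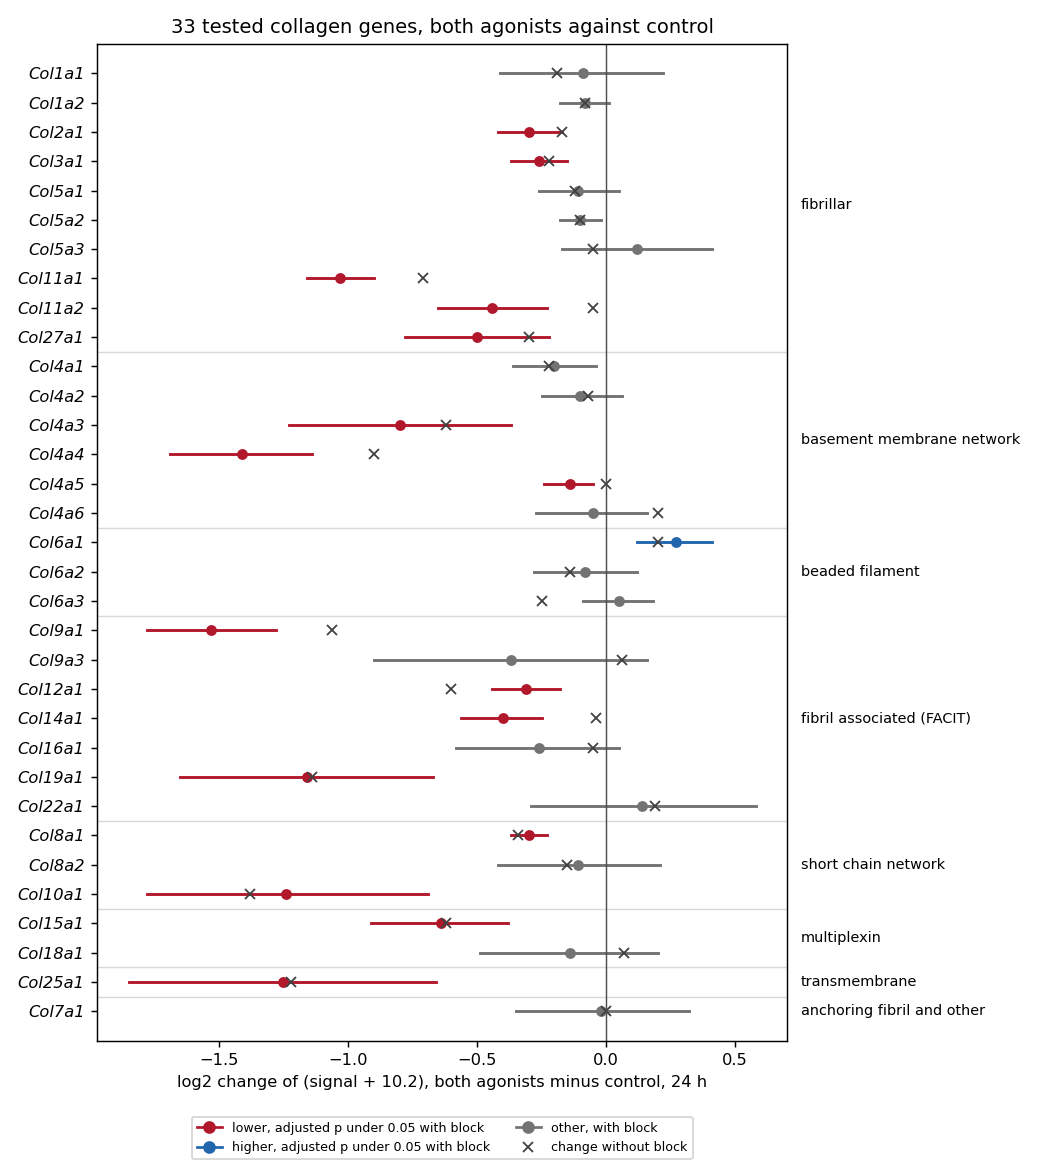
Log2 change of each tested collagen gene with both agonists against the control at 24 h, 4 control and 3 combination arrays, with the number as a block (points, with 95% confidence intervals) and without it (crosses), ordered by structural class. Col9a1 (-1.53), Col4a4 (-1.41) and Col11a1 (-1.03) lie far below 0 with narrow intervals, and Col6a1 (0.27) is the 1 gene called above 0.

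Among fibrillar collagens the change was uneven. Col11a1 encodes the alpha 1 chain of type XI, which sets the diameter of fibrils. Its signal was 3152.0, 9187.1, 4581.2 and 8200.3 on control arrays 0 to 3, and 4366.0, 2222.7 and 4411.3 on combination arrays 1 to 3. Numbers 0 and 2 ran low under every treatment, so the groups overlapped, but each combination array was below the control of its own number, with log2 differences of -1.07, -1.04 and -0.89. With the block the change was -1.03 ± 0.06 (SE), or 0.489-fold, adjusted p 2.05e-07. Without the block it was -0.71 ± 0.49, adjusted p 0.69. A second Col11a1 probe set gave -1.01 with the block. Col11a2, the second chain of type XI, changed by -0.44 ± 0.10 (adjusted p 0.00631), and by -0.05 without the block.

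The type II, III and XXVII genes also fell with the block. Col3a1, the chain of the type III fibrils of elastic tissue, read 14169.1, 15485.2, 18686.1 and 16081.0 in the control and 14480.4, 14685.5 and 12327.1 in the combination. All 3 combination arrays were below the control of their number, though the groups overlapped, and the change with the block was -0.26 ± 0.05, adjusted p 0.00319, against -0.22 without it. Arrays scaled to equal medians moved that adjusted p to 0.0677. Its dimmer second probe set gave -0.72. Col2a1, the main cartilage chain, changed by -0.30 ± 0.06 (adjusted p 0.0022) and Col27a1 by -0.50 ± 0.13 (adjusted p 0.0159). Without the block they changed by -0.17 and -0.30. The Col27a1 call was lost without control array 1 or combination array 1 or 2 (adjusted p up to 0.113).

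The major chains of type I, the most abundant collagen of the vessel wall, were not called. Col1a1 read 7345.8 to 9484.3 in the control and 6137.1 to 8873.2 in the combination, a change of -0.09 with the block and a 95% confidence interval of -0.41 to 0.22. Col1a2 changed by -0.08, with an interval of -0.18 to 0.01, and its 2 other probe sets gave -0.12 and -0.38, not called. Type V chains, which nucleate type I fibrils, were also not called, at -0.11 for Col5a1, -0.10 for Col5a2 and 0.12 for Col5a3. The probe sets of Col5a2 did not give the same result: the brighter one, used for the gene, had an adjusted p of 0.0931, and the dimmer one gave -0.35 with an adjusted p of 0.000231 over probe sets. Signals of Col1a2, Col2a1, Col3a1 and Col5a2 reached 18686.1 to 20019.7 at 24 h, near the highest signal of any probe set on an array, which was 20139.8 to 26347.9. Whether such bright probe sets understate a change was not tested.

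In the basement membrane Col4a3, Col4a4 and Col4a5 were called lower. Type IV collagen is built from 3 pairs of neighbouring genes that lie head to head, and the pair Col4a1 and Col4a2 makes the common network. Col4a4 and its partner Col4a3 encode chains of the network known from the kidney glomerulus. Col4a4 read 189.8, 174.8, 1325.6 and 1379.8 on control arrays 0 to 3 and 51.6, 642.4 and 497.3 on combination arrays 1 to 3. The level split by number, high on 2 and 3, and each combination array was below the control of its number. The change with the block was -1.41 ± 0.13, or 0.375-fold, adjusted p 4.71e-06, and without the block -0.90 ± 1.21, adjusted p 0.894. Of 2 other Col4a4 probe sets, 1 gave -1.53 and the dimmest gave -0.31 with an adjusted p of 0.527. Col4a3, with the same split by number (107.8 to 977.3 in the control), changed by -0.80 ± 0.20, adjusted p 0.0121 (-0.62 without the block), and its second probe set gave -1.55. That probe set read 12.0, 465.3 and 283.3 on combination arrays 1 to 3, against 124.9, 985.5 and 592.0 on the same-numbered control arrays. The reading of 12.0 is near the pseudocount of 10.2. The Col4a3 call was lost without combination array 2 or 3 (adjusted p up to 0.0608).

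The common chains were not called: Col4a1 changed by -0.20 (95% confidence interval -0.36 to -0.04, adjusted p 0.079) and Col4a2 by -0.10 (-0.25 to 0.06). Col4a5, a chain of the third pair, was called at -0.14 ± 0.04, adjusted p 0.0362, and the call was lost without control array 0, 1 or 3, antibody array 0, TNF array 0 or combination array 1 or 3 (adjusted p up to 0.156). Without the block its change rounded to 0. With equal medians the adjusted p was 0.254, with quantile normalization 0.101 and with numbers 1 to 3 alone 0.0897. A second Col4a5 probe set was also below the control of its number on each combination array (2566.8, 2767.7 and 2964.7 against 2676.3, 2881.9 and 3224.9). Col4a6 was not called, at -0.05.

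No beaded filament gene was called lower. Col6a1, a chain of the type VI filaments that link cells to the matrix, read 7789.7, 8738.4, 6013.5 and 6185.8 in the control and 11142.3, 6972.9 and 6994.5 in the combination. Each combination array was above the control of its number, and the groups overlapped. The change with the block was 0.27 ± 0.07, or 1.2-fold, adjusted p 0.0126 (0.20 without it), and the call was lost without control array 1 or combination array 1 or 2 (adjusted p up to 0.0793). Col6a2 changed by -0.08 and Col6a3 by 0.05, neither called. Col6a3 ranged from 783.3 to 4014.5 over the control arrays, and 98.0 percent of its variance lay between numbers.

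With the block the lowest value of the family was that of a fibril-associated gene, Col9a1, and without it that of Col10a1 (-1.38). Col9a1 encodes a chain of type IX, which coats type II fibrils in cartilage. Control arrays 0 to 3 read 699.6, 4840.2, 1148.5 and 4512.1, and combination arrays 1 to 3 read 1584.7, 328.7 and 1774.7. Numbers 1 and 3 were high under every treatment, as they were for the cartilage marker sum, so the groups overlapped, and the log2 differences from the control of the same number were -1.60, -1.77 and -1.34. The change with the block was -1.53 ± 0.12, or 0.347-fold, adjusted p 1.22e-06, and without it -1.06 ± 0.92, adjusted p 0.792. A second probe set gave -0.97. Col9a3, the partner chain, changed by -0.37 with an interval of -0.90 to 0.16 and was not called.

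Col19a1, a minor chain found near basement membranes, was the 1 gene called in both fits. It read 128.6, 143.7, 221.9 and 206.8 in the control and 71.6, 58.6 and 88.2 in the combination, and the groups did not overlap. The change was -1.14 ± 0.24 without the block (0.453-fold, adjusted p 0.0203) and -1.16 ± 0.23 with it (adjusted p 0.00241). It lay above the array median on only 7 of the 15 arrays, so it is a dim gene. None of its combination signals reached the lowest array median, 106.8, so it passed the filter only on arrays of the other groups. Without the block the call was lost when control array 2 or 3, or combination array 1 or 2, was left out. A second probe set gave -0.92 with the block.

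The 2 chains that bind the surface of type I fibrils also fell with the block. Col12a1 changed by -0.31 ± 0.06, adjusted p 0.00196, and Col14a1 by -0.40 ± 0.07, adjusted p 0.00128. Without the block they changed by -0.60 and -0.04. The Col12a1 groups did not overlap, at 2757.8 to 6604.3 in the control and 2163.4 to 2449.6 in the combination, but the control array at 6604.3 is the one numbered 0, which the combination lacks. Second probe sets of Col12a1 (-0.29) and Col14a1 (-0.16) were not called. Col16a1 (-0.26) and Col22a1 (0.14) were not called.

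Short chain collagens form hexagonal networks. Col8a1, made by smooth muscle cells of injured arteries, read 13969.8, 13944.1, 11844.3 and 13426.9 in the control and 11036.2, 9645.0 and 10802.6 in the combination. No combination array reached the lowest control array. The change with the block was small but even, -0.30 ± 0.03, or 0.813-fold, adjusted p 2.47e-05, at -0.34, -0.30 and -0.31 for numbers 1 to 3. Without the block it was -0.34 ± 0.10, adjusted p 0.114. Its 2 other probe sets gave -0.23 and -0.42. Col10a1, the chain of growth plate cartilage, read 318.9, 368.3, 164.7 and 145.3 in the control and 120.0, 36.2 and 120.3 in the combination, with no overlap, and changed by -1.24 ± 0.25, adjusted p 0.00324, or -1.38 without the block. Col8a2 changed by -0.11 and was not called.

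In the remaining classes Col15a1, a proteoglycan-like chain of the outer basement membrane, changed by -0.64 ± 0.12 with the block, adjusted p 0.00214 (-0.62 without it), and Col18a1, the source of endostatin, by -0.14, not called. Col25a1, the 1 tested transmembrane chain, changed by -1.25 ± 0.28, adjusted p 0.00545, or -1.22 without the block. It lay above the array median on 4 of 15 arrays. Col7a1, the anchoring fibril chain, changed by -0.02 with an interval of -0.35 to 0.32.

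**Figure D3:**
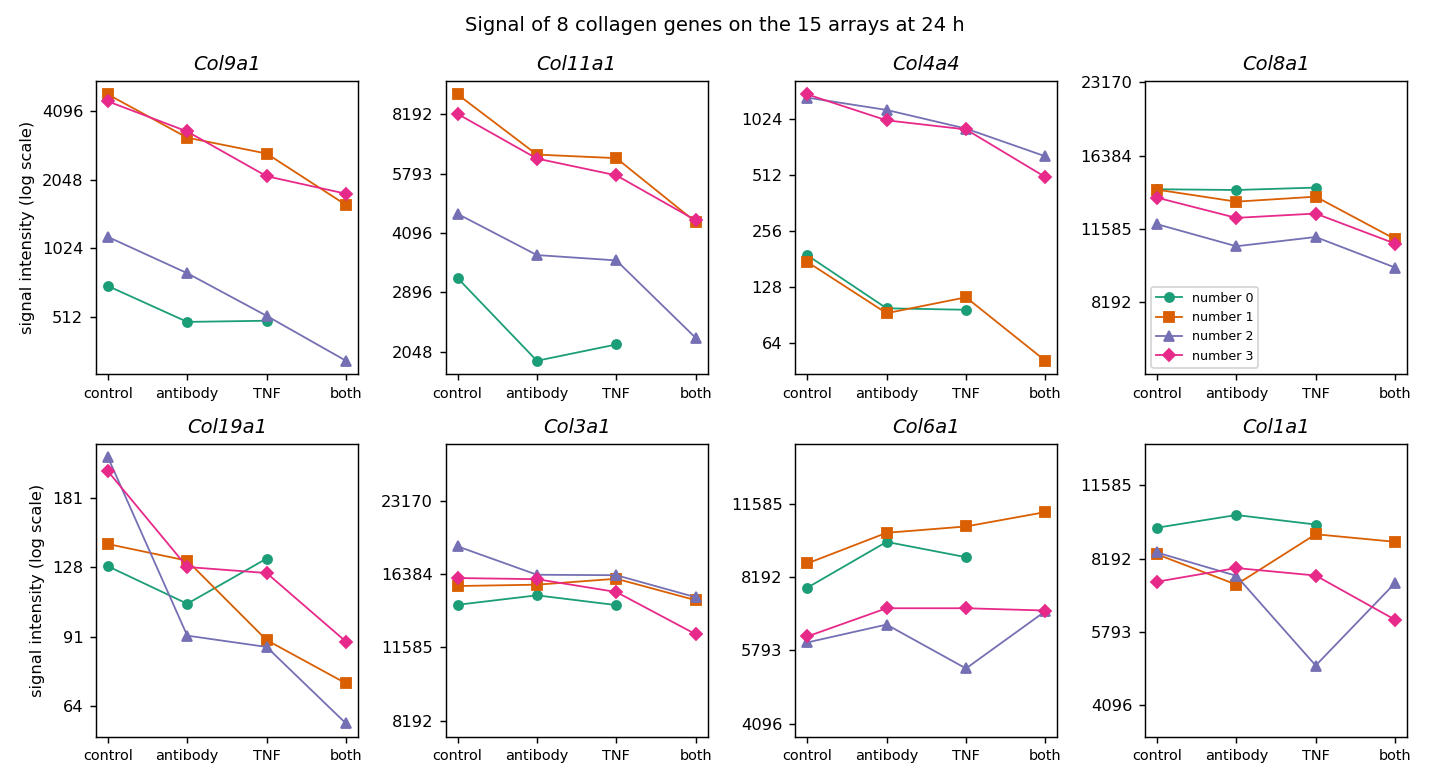
Signal intensity of 8 collagen genes on the 15 arrays at 24 h, on a log2-spaced axis, with lines joining arrays of the same number. Lines of Col9a1, Col11a1 and Col4a4 run apart by number and fall toward the combination, Col8a1 is lowest in the combination for numbers 1 to 3, Col6a1 is higher in the combination than in the control, and Col1a1 has no common direction.

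The antibody to LTBR alone lowered 5 collagen genes with the block and raised none, against a background of 2.21 percent lower and 2.55 percent higher. Without the block 0 were called, with 2 at an unadjusted p under 0.05 and a background of 0.129 percent. Over all genes the split of 317 higher and 275 lower calls with the block moved to 411 and 61 when arrays were scaled to equal medians, so the direction of small changes in this comparison depends on the scaling. Col25a1 was lower by the most. It read 125.5, 119.3, 88.1 and 231.2 in the control and 45.2, 30.6, 23.6 and 83.4 with the antibody, and the groups did not overlap. The change was -1.47 ± 0.25, adjusted p 0.0043. Col25a1 lay above the array median on 4 of 15 arrays, none of them an antibody array. It thus passed the filter only on arrays of the other groups. A dimmer Col25a1 probe set, below the filter, read 28.3, 41.8, 37.0 and 37.3 in the control. With the antibody that probe set read 42.6, 18.1, 29.1 and 44.2. The other genes called were Col4a4 (-0.60 ± 0.12, adjusted p 0.00922), Col9a1 (-0.53 ± 0.11, adjusted p 0.0117), Col11a1 (-0.48 ± 0.06, adjusted p 0.000285) and Col14a1 (-0.29 ± 0.07, adjusted p 0.0216).

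Each of the 5 was lower in 4 of 4 pairs. The Col14a1 call was lost with equal medians (adjusted p 0.162), and without control array 0 or 2 or antibody array 0, 2 or 3 (up to 0.0992). The Col9a1 call was lost without antibody array 0 or 1 (adjusted p up to 0.063). With numbers 1 to 3 alone 3 of the 5 were called, and Col14a1 (adjusted p 0.134) and Col4a4 (adjusted p 0.0673) were not called. The family median was -0.10 against -0.01 for all tested genes, and 25 of the 33 lay below 0 against 53.7 percent of all genes. With equal medians 18 of the 33 did, against 31.8 percent.

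TNF alone lowered 6 collagen genes with the block and raised none, against a background of 2.88 percent lower and 3.06 percent higher. Without the block 0 were called, with 1 at an unadjusted p under 0.05 and a background of 0.337 percent. Col9a1 read 492.5, 2662.4, 517.4 and 2118.2 with TNF, below the control of the same number on each array, and changed by -0.89 ± 0.11, or 0.538-fold, adjusted p 0.000226. Col10a1 changed by -0.89 ± 0.23 (adjusted p 0.0354), Col4a4 by -0.66 ± 0.12 (adjusted p 0.00396) and Col11a1 by -0.50 ± 0.06 (adjusted p 0.000146). Col11a2 (-0.37 ± 0.09, adjusted p 0.0273) and Col12a1 (-0.26 ± 0.05, adjusted p 0.0108) were lost with equal medians, at adjusted p 0.0763 and 0.158. A second Col12a1 probe set was higher with TNF than in the control on number 0 (2742.5 against 2440.6). On numbers 1 to 3 that probe set was lower with TNF (1317.5, 718.1 and 783.7 against 1349.2, 860.3 and 1180.2). The Col10a1 call was lost without control array 0, 1 or 2, antibody array 1 or TNF array 0, 2 or 3 (adjusted p up to 0.117), and the Col11a2 call without control array 0, 2 or 3 or TNF array 2 or 3 (up to 0.0928). With numbers 1 to 3 alone Col10a1, Col11a2 and Col12a1 were not called. Over all genes the split of 381 higher and 358 lower calls with the block moved to 345 and 140 with equal medians. The family median was -0.15 against -0.02 for all tested genes. The antibody and TNF comparisons share their control arrays.

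TNF and the antibody were set against each other directly. With the block 1 collagen gene differed, against a background of 0.731 percent, and without it 0 did, with 1 at an unadjusted p under 0.05 and a background of 0.0161 percent. It was Col6a3, with a log2 difference of -0.29 ± 0.06 for TNF minus antibody (adjusted p 0.0304). By number the signals were 3458.1, 2824.6, 715.7 and 1866.9 with TNF and 4226.3, 3481.0, 812.3 and 2425.6 with the antibody, lower with TNF in 4 of 4 pairs while the groups overlapped. The call was lost with equal medians (adjusted p 0.0874), with numbers 1 to 3 alone (0.128), and without antibody array 0, 1 or 3 or any of the 4 TNF arrays (up to 0.14). Over all genes 44 were higher and 47 lower with TNF than with the antibody, and 33 and 61 with equal medians. Col25a1 differed by 1.03, higher with TNF in 4 of 4 pairs, and was not called.

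The combination was also compared with each single agonist, to see whether the second agent moved the genes further. Against TNF, 5 collagen genes were lower with the block, against a background of 3.31 percent lower: Col9a1 (-0.63 ± 0.12, adjusted p 0.00593), Col4a4 (-0.75 ± 0.13, adjusted p 0.00381), Col11a1 (-0.53 ± 0.06, adjusted p 0.000441), Col8a1 (-0.24 ± 0.03, adjusted p 0.00104) and Col3a1 (-0.20 ± 0.05, adjusted p 0.0391). Against the antibody 6 were lower, with a background of 2.85 percent lower: Col9a1 (-1.0 ± 0.12, adjusted p 0.000397), Col4a4 (-0.81 ± 0.13, adjusted p 0.00216), Col11a1 (-0.55 ± 0.06, adjusted p 0.000323), Col8a1 (-0.20 ± 0.03, adjusted p 0.00257), Col3a1 (-0.23 ± 0.05, adjusted p 0.0221) and Col4a5 (-0.16 ± 0.04, adjusted p 0.0477). Without the block 0 were called in either, with 1 and 2 at an unadjusted p under 0.05 and backgrounds of 0.0482 and 0.362 percent. The Col3a1 and Col4a5 calls were lost with equal medians, with quantile normalization and with numbers 1 to 3 alone. With numbers 1 to 3 alone the adjusted p was 0.0775 for Col3a1 against TNF, and against the antibody 0.0635 for Col3a1 and 0.072 for Col4a5, which left 4 calls in each comparison. With quantile normalization these were 0.203, 0.0502 and 0.108. Against TNF the Col3a1 call was lost without control array 0, any of the 4 TNF arrays or combination array 2 or 3 (adjusted p up to 0.185), and the Col9a1 call without combination array 2 (0.0501). Against the antibody the Col3a1 call was lost without antibody array 0 or 3 or combination array 2 or 3 (up to 0.128), and the Col4a5 call in 10 of 15 fits that left out 1 array of any group (up to 0.201). A second Col4a5 probe set was lower than with the antibody on numbers 1 and 3 and higher on number 2 (2767.7 against 2726.4). Over all genes the split of 346 higher and 355 lower calls against the antibody moved to 199 and 347 with equal medians.

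An interaction term asked whether the combination differed from the sum of the 2 single changes on the log2 scale. No collagen gene was called in either fit, where 0 percent of all genes were called without the block and 0.0161 percent with it. With the block 3 had an unadjusted p under 0.05, and without it 0 did. For the 3 genes with the smallest p against the control the terms were -0.11 (95% confidence interval -0.45 to 0.23) for Col9a1, -0.15 (-0.52 to 0.22) for Col4a4 and -0.05 (-0.23 to 0.13) for Col11a1. These intervals include 0 and also departures as far as -0.52, so additivity was not shown. The smallest p-values without the block were those of Col8a1, Col22a1 and Col7a1, and with the block the terms were -0.15 (-0.24 to -0.05, adjusted p 0.377), 0.42 (-0.17 to 1.00) and 0.25 (-0.20 to 0.70).

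At 2 h and 6 h each condition had 1 array, so differences there have no replicate check. Set against the control array at that time, the 33 genes had a median difference of -0.04 with the antibody and -0.05 with TNF at 2 h, and -0.07 and -0.09 at 6 h, against medians of all tested genes between -0.03 and 0.01. On the 24 h arrays of the same number the medians were -0.07 with the antibody and -0.14 with TNF, with 1 gene (Col25a1, antibody) and 0 genes past 2-fold. At 2 h 0 collagen genes differed 2-fold with either agent, where 0.675 percent (antibody) and 1.73 percent (TNF) of all genes did. At 6 h 0 did with the antibody, with a background of 0.884 percent, and 1 with TNF, with a background of 2.21 percent. That gene was Col9a3, at 60.4 in the control and 135.7 with TNF. The control array at 2 h read 136.0. A second Col9a3 probe set read 27.7 in the control and 28.5 with TNF at 6 h, both below every array median.

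On the arrays numbered 0, Col4a4 and Col11a1 were nearer to their control at the early times than at 24 h. Col4a4 read 223.2 in the control, 232.5 with the antibody and 229.6 with TNF at 2 h, then 193.3, 216.7 and 166.5 at 6 h, then 189.8, 98.6 and 96.8 at 24 h. Col11a1 read 3845.2, 3860.5 and 3627.8 at 2 h, 3642.9, 3210.2 and 3477.1 at 6 h, and 3152.0, 1945.4 and 2139.6 at 24 h. Col10a1 was below the control at each time, with log2 differences of -0.26, -0.46 and -0.51 with the antibody and -0.28, -0.36 and -0.82 with TNF. Col25a1 in the control read 32.7, 52.7 and 125.5 at 2, 6 and 24 h, and with the antibody 64.5, 104.0 and 45.2, so its difference from the control changed sign. All of these readings except the control at 24 h were below every array median, so this sign change is between dim signals on single arrays.

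**Figure D4:**
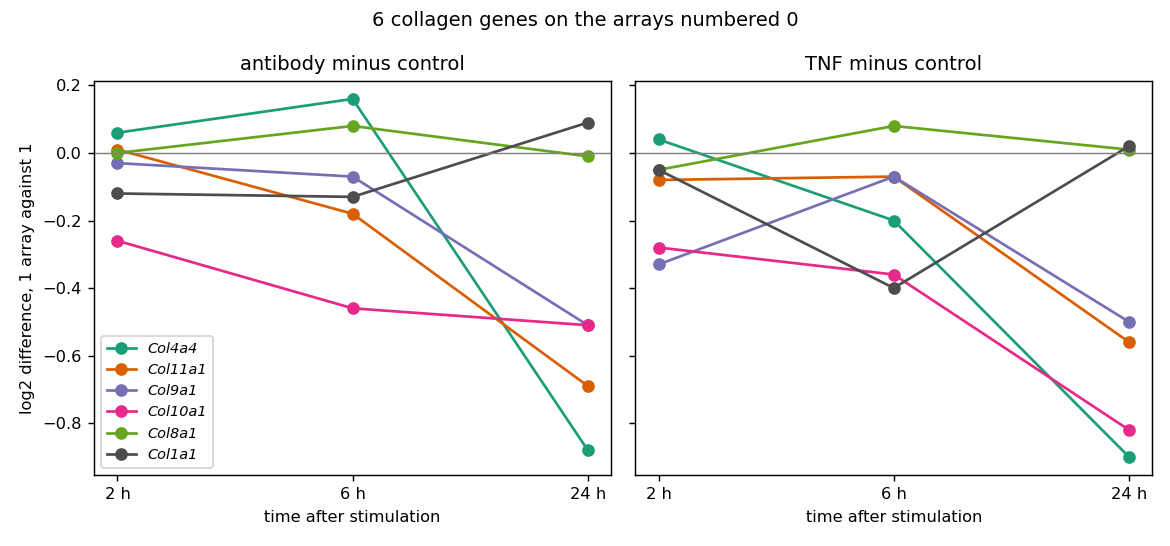
Log2 difference of 6 collagen genes from the control at that time, for the antibody (left) and TNF (right), on the arrays numbered 0 at 2, 6 and 24 h (drawn at even steps), 1 array against 1. Col4a4 lies between -0.20 and 0.16 at 2 h and 6 h and at -0.88 and -0.90 at 24 h, and Col1a1 ends at 0.09 and 0.02.

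The genes that make, cut, bind and induce collagen were counted from lists of general knowledge. Against the control with both agonists and with the block, 2 of 17 tested genes of hydroxylation, folding and export rose and 3 fell, where 9.1 percent of all genes were called higher and 10.4 percent lower. Without the block 0 rose and 1 fell, and 0 genes of the processing, receptor and protease lists were called. P3h2, a prolyl 3-hydroxylase that acts on type IV chains, was called in both fits: it read 668.7, 556.0, 509.8 and 672.5 in the control and 312.5, 189.7 and 333.1 in the combination, with no overlap, and changed by -1.03 ± 0.12 with the block (adjusted p 3.22e-05) and by -1.11 ± 0.22 without it (adjusted p 0.013). P4ha2, a prolyl 4-hydroxylase subunit that lets the helix form, rose by 0.76 ± 0.08 with the block (adjusted p 1.39e-05). Of 8 processing and crosslinking genes 0 rose and 3 fell (Loxl1, Loxl3 and Pcolce), and of 9 receptors 0 rose and 4 fell, with Itga1, a chain of the type IV collagen receptor, at -0.88 ± 0.15 (adjusted p 0.000934). Of 5 proteases 2 rose, Mmp9 by 1.53 ± 0.39 (adjusted p 0.0123) and Mmp14 by 0.41 ± 0.09 (adjusted p 0.00715), and 0 fell. Mmp9 is a dim gene. It read 115.0, 39.5, 25.3 and 115.3 in the control, near or below the array medians of 106.8 to 139.0. In the combination it read 276.6, 135.7 and 143.9.

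Of 16 genes of the TGF-beta axis, a main inducer of collagen genes, 3 rose and 6 fell with the block, with the same background of 9.1 and 10.4 percent, and 1 rose and 0 fell without it. These counts do not separate genes that promote the axis from those that oppose it. The list also holds Smad6, Smad7 and Skil. Ltbp2 was called in both fits, at 0.70 ± 0.11 with the block (adjusted p 0.000469) and 0.71 ± 0.17 without it (adjusted p 0.0441). The receptor gene Tgfbr1 changed by -0.45 ± 0.05 (adjusted p 1.69e-05) and Tgfbr2 by 0.27 ± 0.06 (adjusted p 0.0086). List medians lay between -0.28 (receptors) and 0.01 (hydroxylation, folding and export), against 0.00 for all tested genes. P4ha2, Tgfbr1, Tgfbr2, Itga1, Mmp9 and Mmp14 were chosen for mention after their values were seen.

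Markers of cartilage cells were counted in the same way, and whether they moved together with the cartilage-type collagens was not tested. With the block 5 of 6 tested markers fell under the combination, where 10.4 percent of all genes were called lower, and without the block 0 of 6 were called: Acan (-1.81 ± 0.13), Hapln1 (-1.64 ± 0.28), Cnmd (-0.71 ± 0.20), Sox9 (-0.64 ± 0.14) and Comp (-0.43 ± 0.10). Acan, the core protein of cartilage aggrecan, read 2319.1, 5352.9, 2156.4 and 2456.2 in the control and 1158.2, 727.1 and 790.0 in the combination, with no overlap. Hapln1 is a dim gene, at 60.4, 426.3, 51.5 and 153.1 in the control and 133.1, 4.2 and 61.4 in the combination. Acan also fell with TNF and with the antibody alone. With the block 2 and 1 of the 6 markers were called lower in these comparisons, against backgrounds of 2.88 and 2.21 percent. Without the block 0 were called in either. Of 8 smooth muscle markers 5 fell with the block, with Cnn1 at -1.14 ± 0.14 and Tagln at -0.31 ± 0.04, and 0 rose, and without the block Tagln alone was called. Of 7 tested adventitial fibroblast markers 2 rose with the block, Dpt (1.74 ± 0.54) and Pdgfra (0.64 ± 0.09), and 0 fell. The background was 9.1 percent of all genes called higher, and without the block 0 of the markers were called. Dpt read 16.6 to 88.0 on the control arrays, below every array median, so it passed the filter on treated arrays only. Serpinf1, not called, was lower in the combination on numbers 1 to 3 (6047.8, 1719.6 and 2076.5 against 6505.3, 2258.0 and 2434.1). Of 14 tested endothelial markers 0 were called with the block, and none of 6 macrophage markers. Lymphocyte markers summed to 542 to 1033 and adipocyte markers to 333 to 1278 at 24 h. The part of these cell markers in the collagen results was not tested.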

How the data were processed

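The authors deposited linear signal intensities made with GCOS 1.4, per the submitters' processing notes. Each array's mean without the lowest and highest 2 percent was 500.0, and array medians were 106.8 to 139.0. Of 45101 probe sets, 34945 had 1 gene symbol in the platform annotation, and the 932 with several and 9160 with none named no gene. Probe sets were kept (25110) if 3 or more of the 15 arrays at 24 h gave a signal above that array's median, and the brightest one stood for each gene. log2(intensity + 10.2), with the 10th percentile as pseudocount, was fitted with limma 3.58.1 in R 4.3.3 over all 15 arrays at 24 h (11 residual degrees of freedom, 8 with the array number as a block). The variance was moderated with a trend, p-values were adjusted by Benjamini-Hochberg over 12446 genes, and the threshold was 0.05. Intervals are at 95% confidence. Same-numbered arrays correlated at a median of 0.63 and others at -0.23, and 15 of 15 arrays correlated best with their own number, so the pairing comes from the data. Every member called in either fit is named, and otherwise the 3 with the smallest p. At 2 h and 6 h members past 2-fold with a signal above the array median are named. The genes and lists were chosen with earlier results of these data known. Alternatives were the pseudocount, filter, scaling, probe set summary, block and each array left out. The fits were tested on simulated data. The number of arrays limits the precision.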

Additional observations from a re-analysis of the deposited data

Results flagged for a closer look

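In 99 sets of 4 arrays (33 genes in the control, antibody and TNF groups at 24 h), Dixon's test at the 95% level marked 4 in which 1 array stood apart, and chance gives about 1 in 20. Col12a1 was highest on control array 0, at 6604.3. Col1a2 was highest on control array 1, at 19713.2. Col4a5 was lowest on antibody array 0, at 5062.0. Col7a1 was highest on control array 3, at 314.6. Arrays numbered 0 are those with the highest endothelial marker sum.

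Col6a3 differed between the 2 single agonists when these were compared directly with the number as a block, at -0.29 for TNF minus antibody on the log2 scale.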

How the results depend on the processing

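The numbers pair the arrays, and the replicate block moved the count of called collagen genes from 0 to 5 (antibody against control), 6 (TNF against control), 5 (both agonists against TNF), 6 (both against antibody) and 1 (TNF against antibody), and from 1 to 17 for both against control; the interaction had 0 with and without it. The block with equal medians gave 4, 4, 4, 5, 0 and 15 in that order. With numbers 1 to 3 alone and the block, chosen after seeing the data as were the fits with the block that used quantile normalization or left out an array, the antibody comparison had 3.

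When each array was left out in turn with the block, counts ran from 3 to 6 (antibody), 4 to 7 (TNF), 14 to 20 (both against control), 3 to 6 (both against TNF), 4 to 7 (both against antibody), 0 to 1 (TNF against antibody) and 0 to 0 (interaction). The lowest antibody count came without antibody array 0 and the lowest count against TNF without combination array 2. Without the block, counts were 0 to 1 for both against control and 0 to 0 in the 6 other comparisons.

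Without the block some directions turned. Col14a1, both against control, was 0.01 with the mean of its probe sets. Col4a5, both against control, was 0.00 with equal medians, 0.03 with quantile normalization and 0.01 with the mean of its probe sets, and against antibody 0.01 with quantile normalization and 0.04 with the mean. Leaving out 1 array, still without the block, gave ranges that crossed 0. Against control with both agonists these were -0.42 to 0.46 (Col11a2), -0.41 to 0.66 (Col14a1), -0.49 to 0.03 (Col27a1), -0.29 to 0.01 (Col2a1), -1.53 to 0.17 (Col4a4), -0.13 to 0.06 (Col4a5) and -0.02 to 0.32 (Col6a1). Both against TNF gave -0.52 to 0.11 (Col11a1), -0.87 to 0.83 (Col4a4) and -0.59 to 0.61 (Col9a1). Both against antibody gave -0.59 to 0.09 (Col11a1), -0.93 to 0.77 (Col4a4), -0.17 to 0.04 (Col4a5) and -1.04 to 0.24 (Col9a1). The rest were Col12a1 with TNF (-0.55 to 0.04), Col14a1 with the antibody (-0.66 to 0.13) and Col6a3, TNF against antibody (-0.79 to 0.18). The cause was not tested. In fits with the block, 634 values kept their direction and side of the threshold, 86 kept the direction and lost the call, and none reversed. Col19a1, Col25a1 and Col10a1 lay above the array median on 7, 4 and 10 of 15 arrays, so their signals are the least secure of the called genes.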
